A study of Mus musculus with 2 samples.

Results

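Dividing cells of the mouse kidney were examined on day 14 after unilateral renal ischemia-reperfusion, in 1 single-cell RNA library from a Cre- kidney and 1 from a PHDTiEC kidney. Members were chosen by measured values: a cycling barcode is a droplet barcode with at least 4 unique molecular identifiers (UMIs) of Mki67 and Top2a summed. The rule found 548 cycling barcodes among 17701 kept barcodes, of which 273 of 8468 came from the Cre- library and 275 of 9233 from the PHDTiEC library. The PHDTiEC mouse carried floxed alleles of Phd1, Phd2 and Phd3 with the tamoxifen-inducible Cdh5-CreERT2 transgene, whose Cdh5 promoter restricts Cre to endothelial cells. The Cre- mouse was a littermate control without the transgene. Mice were 8 to 10 weeks old, the renal pedicle was clamped for 25 minutes, and 4 tamoxifen injections of 3 mg were given after the ischemia. The genotypes therefore differ in endothelial cells, and any difference in immune, tubular or stromal cells compares 1 kidney with 1 kidney. Each genotype had 1 mouse and 1 library, so no test between genotypes was possible, and every interval is an exact 95% interval that covers counting error only.

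Proliferating cells copy their DNA in S phase with the MCM helicase, the clamp Pcna and ribonucleotide reductase, and then separate the copies in G2 and mitosis (G2/M) with cyclin B, Cdk1 and the kinetochore and spindle proteins. Mki67 encodes a protein that coats mitotic chromosomes, Top2a encodes the topoisomerase that untangles sister DNA, Cenpf encodes a kinetochore protein and Birc5 encodes survivin of the chromosomal passenger complex. After ischemic injury, surviving tubular cells divide to refill the epithelium, while macrophages, dendritic cells and T cells can divide inside the recovering kidney.

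The proximal promoters of genes that define these phases are shown because they carry the short motifs known from cell cycle genes. The CHR element (TTTGAA or TTTAAA) and the CCAAT box are typical of G2/M genes, and E2F sites (TTTCCCGC or TTTGGCGC) are typical of S-phase genes. The 120 bases before the RefSeq transcription start (GRCm38.p6) are given 5′ to 3′ on the minus strand, which is the strand of all 5 genes, with motif matches on either strand in capitals (TTCAAA and ATTGG are matches read on the other strand).
Mki67, chr7:135716380-135716499: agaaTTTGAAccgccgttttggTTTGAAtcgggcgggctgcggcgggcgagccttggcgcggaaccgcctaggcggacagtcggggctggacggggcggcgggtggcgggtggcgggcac
Top2a, chr11:99024190-99024309: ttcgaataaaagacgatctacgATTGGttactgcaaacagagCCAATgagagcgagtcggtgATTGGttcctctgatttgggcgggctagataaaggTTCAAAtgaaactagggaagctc
Ccnb1, chr13:100786487-100786606: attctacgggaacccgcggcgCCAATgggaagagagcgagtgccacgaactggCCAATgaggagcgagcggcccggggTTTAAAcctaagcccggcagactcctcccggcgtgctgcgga
Cdk1, chr10:69352913-69353032: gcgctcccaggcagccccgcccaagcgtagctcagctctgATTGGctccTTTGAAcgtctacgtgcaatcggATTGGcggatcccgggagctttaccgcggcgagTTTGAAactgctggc
Mcm6, chr1:128359706-128359825: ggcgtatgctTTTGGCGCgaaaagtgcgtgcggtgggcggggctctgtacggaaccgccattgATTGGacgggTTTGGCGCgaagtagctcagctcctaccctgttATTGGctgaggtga

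These promoters were picked because they hold the motifs. Mki67 has 2 CHR matches, Top2a has 1 CHR match and 3 CCAAT boxes, and Mcm6 has 2 E2F matches and 2 CCAAT boxes. Over the 250 bases before each start, 19 of the 46 windows of 41 matched G2/M genes (41.3%) held both a CHR match and a CCAAT box, against 8.78% of all 32851 promoter windows. Among the 34 windows of 30 matched S-phase genes, 8 (23.5%) held an E2F match, against 1.30% of all windows. CHR with CCAAT was found in 14.7% of S-phase windows, and an E2F match in 2.17% of G2/M windows. The CCAAT box was frequent in both lists, in 78.3% of G2/M and 67.6% of S-phase windows, against 33.8% of all windows. A match is a description of the letters only.

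The Cre- library held 136004367 UMIs in all and the PHDTiEC library 146758812, with a median of 7414.5 and 7815 UMIs per kept barcode. The libraries shared 27 kept barcode sequences and none among the cycling barcodes. The floxed genes were read in barcodes with Cdh5 alone among the lineage genes, 267 in the Cre- and 385 in the PHDTiEC library. Egln1, which encodes PHD2, stood at 72.1 counts per 1000000 UMIs (CPM; interval 62.7 to 82.6) in the Cre- library and 215 CPM (200 to 230) in the PHDTiEC library. Egln2 (PHD1) stood at 35.2 and 36.7 CPM, and Egln3 (PHD3) at 29.3 and 176 CPM. These 3′ counts need not touch the deleted exons, so they check neither the deletion nor the label. The hypoxia-inducible genes Slc2a1 and Vegfa, which encode a glucose transporter and a vascular growth factor, stood at 14.8 and 29.0 CPM in these Cre- barcodes, and their levels in the library labelled PHDTiEC were 83.5 and 110 CPM.

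The sum of Mki67 and Top2a that chose the members ran from 4 to 101 UMIs in the Cre- library (median 13) and from 4 to 116 in the PHDTiEC library (median 16). Both genes had a UMI in 240 and 241 members, Mki67 alone in 23 and 22, and Top2a alone in 10 and 12. Mki67 lies on chr7:135689784-135716361 and Top2a on chr11:98992943-99024189, and Cenpf and Birc5, which the rule did not use, lie on chr1:189640606-189688086 and chr11:117849251-117855743 (GRCm38, GENCODE vM21). Cenpf had a UMI in 71.4% and 70.5% of members and Birc5 in 83.5% and 83.3%, and both were found together in 184 members of each library. Neither was found in 34 Cre- and 36 PHDTiEC members. The label of cycling cells was thus matched by further cell cycle genes in most members.

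Just outside the threshold, at a sum of 3 UMIs, lay 44 Cre- and 42 PHDTiEC barcodes, of which 38.6% and 33.3% had Cenpf or Birc5. Just inside, at 4 UMIs, lay 35 and 27 barcodes, of which 57.1% and 51.9% did. Barcodes with neither Mki67 nor Top2a carried Cenpf or Birc5 in 2.46% and 2.04%. The share thus climbed across the cut without a break.

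**Figure D1:**
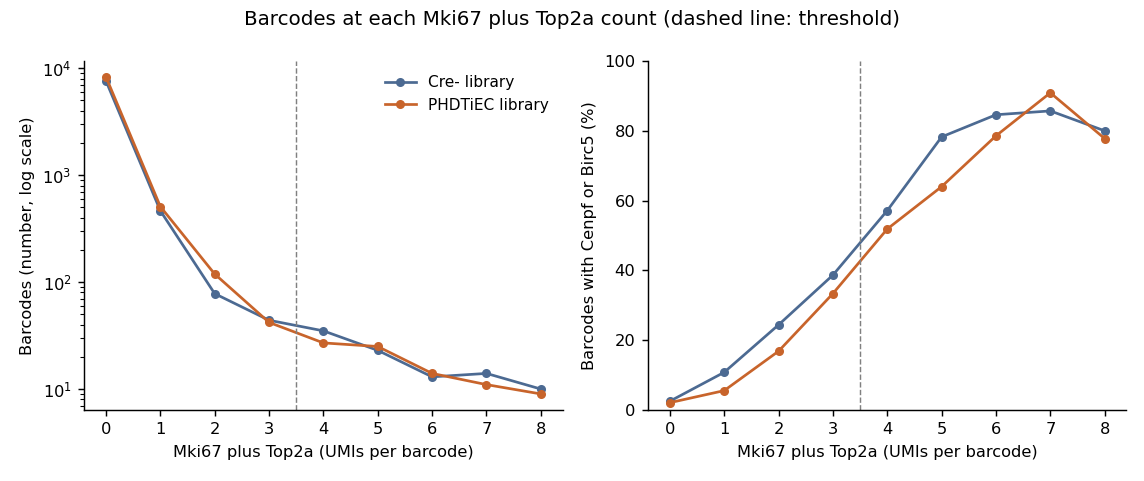
Number of barcodes (left, log scale) and percent of them with a UMI of Cenpf or Birc5 (right) at each sum of Mki67 and Top2a UMIs from 0 to 8, with 1 line per library and a dashed line before the threshold of 4 UMIs. The share lies near 2% at 0 UMIs and at 57.1% and 51.9% at 4 UMIs.

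The cycling share of kept barcodes was 3.22% (2.86 to 3.62) in the Cre- and 2.98% (2.64 to 3.35) in the PHDTiEC library. The ratio of PHDTiEC over Cre- was 0.924 (0.779 to 1.10). With every barcode thinned to 3000 UMIs and a threshold of 2, which left out 2049 Cre- and 2046 PHDTiEC barcodes that were shallower, the shares were 2.76% and 2.71%. The overall share therefore did not differ beyond counting error.

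Cycling barcodes were deeper than other barcodes of the same lineage, which favours deep barcodes in a rule that counts UMIs. Among immune barcodes the median was 16808 UMIs in cycling and 5747 in other barcodes of the Cre- library, and 14931 and 6174 in the PHDTiEC library. Among tubular barcodes it was 27923.5 and 15484 in the Cre- library and 46307 and 15536 in the PHDTiEC library. Thinned shares are therefore given beside those of the lineages and of the larger marker classes, although thinning also changes the threshold and leaves out barcodes below 3000 UMIs, so that the part of depth alone was not tested.

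Lineages were read from Ptprc (immune), Epcam or Pax8 (tubular), Col1a1 (stromal) and Cdh5 (endothelial), each with at least 1 UMI and with none of the other lineages' genes. Immune barcodes were the most numerous group of cycling barcodes, with 122 of 273 in the Cre- library (44.7%, 38.7 to 50.8) and 149 of 275 in the PHDTiEC library (54.2%, 48.1 to 60.2). Tubular barcodes followed with 42 and 29, stromal with 6 and 3, and endothelial with 1 and 1. Genes of several lineages were found in 93 and 90 members, and none of the 5 lineage genes in 9 and 3. Dividing cells on day 14 were thus mainly immune and tubular.

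Within the immune lineage, 3.73% (3.11 to 4.44) of 3269 Cre- barcodes and 4.03% (3.42 to 4.72) of 3694 PHDTiEC barcodes were cycling. The ratio was 1.08 (0.845 to 1.38), and it was 1.17 (0.899 to 1.53) after thinning, with shares of 4.02% and 4.71%. Within the tubular lineage, 2.06% (1.49 to 2.78) of 2037 Cre- and 1.44% (0.967 to 2.06) of 2012 PHDTiEC barcodes were cycling. That ratio was 0.699 (0.420 to 1.15) as counted and 0.475 (0.217 to 0.981) after thinning, with 25 of 1849 Cre- barcodes (1.35%) and 12 of 1869 PHDTiEC barcodes (0.642%). The tubular share was lower in the library labelled PHDTiEC, but the interval of the ratio excluded 1 after thinning and not as counted. With lineages assigned by panels of 5 genes, the thinned ratio was 0.656 (0.373 to 1.13), from 35 of 2633 and 24 of 2752 barcodes, and its interval included 1.

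Within the stromal lineage, 6 of 175 Cre- barcodes (3.43%, 1.27 to 7.31) and 3 of 266 PHDTiEC barcodes (1.13%, 0.233 to 3.26) were cycling. After thinning the counts were 3 of 146 (2.05%) and 2 of 238 (0.840%). The 9 stromal members held 9 to 225 UMIs of Col1a1 in the Cre- library and 30 to 108 in the PHDTiEC library. Within the endothelial lineage, 1 of 267 Cre- barcodes (0.375%, 0.00948 to 2.07) and 1 of 385 PHDTiEC barcodes (0.260%, 0.00658 to 1.44) were cycling. The Cre- endothelial member had 8 UMIs of Cdh5, 8 of Mki67 and 17 of Top2a, and the PHDTiEC one had 13 of Cdh5, 7 of Mki67 and 1 of Top2a. With 1 member in each library, a difference in endothelial cycling was not detectable at this depth.

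Members with genes of several lineages were described rather than dropped. The commonest pattern was Ptprc with Epcam or Pax8, in 64 Cre- and 45 PHDTiEC members, followed by a tubular gene with Col1a1 in 10 and 14, and Ptprc with Col1a1 in 7 and 10. Counting intervals of cycling and other barcodes overlapped at like depth. Between 10000 and 20000 UMIs, 16.9% of cycling and 17.0% of other Cre- barcodes held them, and 15.5% and 17.3% in the PHDTiEC library. Above 40000 UMIs these shares were 66.7% and 54.3% in the Cre- library and 64.0% and 57.5% in the PHDTiEC library. Barcodes below 100 UMIs, which hold free RNA, carried 219 and 239 CPM of Epcam and 114 and 99.6 CPM of Ptprc. A simulated-doublet score marked 19 of 93 and 27 of 90 of these members, against 24 of 273 and 28 of 275 over all members.

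When each barcode was assigned instead to the lineage panel of 5 genes with the most UMIs, 179 Cre- and 180 PHDTiEC members were immune, 79 and 73 tubular, 11 and 18 stromal, and 4 and 2 endothelial. The immune shares were then 3.90% and 3.67%, in the other order than by the single-gene rule, but 4.15% and 4.50% after thinning, with a ratio of 1.08 (0.856 to 1.37). The tubular shares were 2.62% and 2.34%, with a ratio of 0.890 (0.638 to 1.24). Stromal shares were 3.93% and 3.92%, and 3.04% and 2.00% after thinning.

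**Figure D2:**
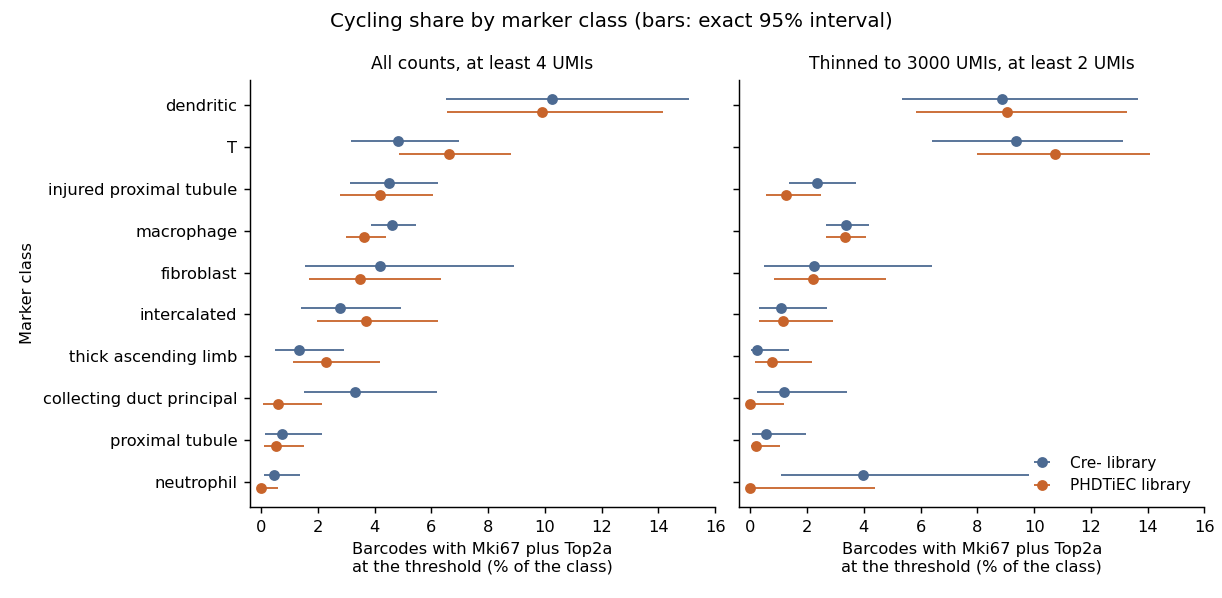
Cycling share of barcodes (percent) by marker class in the Cre- and the PHDTiEC library, over all counts (left) and thinned to 3000 UMIs (right), with exact 95% binomial intervals. Over all counts the dendritic-marker class lies highest at 10.2% and 9.89%, and the intervals of the libraries overlap in each group shown.

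Finer classes were assigned within the lineage panel with the most UMIs, a rule set after the data had been seen. Each barcode went to the marker panel with the highest mean over its genes of log-scaled counts per 10000 UMIs. Macrophage-marker barcodes (C1qa, C1qb, C1qc, Adgre1, Csf1r, Cd68, Ms4a7) made up 127 Cre- and 106 PHDTiEC members, or 42.5% of all 548. They cycled at 4.61% (3.85 to 5.46) of 2757 and 3.64% (2.99 to 4.39) of 2911 barcodes, with a ratio of 0.790 (0.605 to 1.03). After thinning the shares were 3.36% and 3.32%. The counting interval of the ratio included 1 under both, but with Cenpf plus Birc5 of at least 4 UMIs in place of the rule's 2 genes the members were 100 and 75 and the ratio 0.710 (0.519 to 0.968).

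T-marker barcodes (Cd3e, Cd3g, Cd3d, Trac, Trbc2, Skap1, Trdc) contributed 26 and 44 members. They cycled at 4.81% (3.17 to 6.98) of 540 and 6.63% (4.86 to 8.79) of 664 barcodes, with a ratio of 1.38 (0.829 to 2.33). Thinned shares were 9.38% and 10.7% of the deeper T-marker barcodes. Dendritic-marker barcodes (Flt3, Xcr1, Clec9a, Cd209a, Itgax, H2-Ab1) cycled at 10.2% (6.52 to 15.1) of 215 and 9.89% (6.56 to 14.1) of 263 barcodes, and at 8.87% and 9.06% after thinning. The interval of the dendritic-marker class, which presents antigen, lay above that of the macrophage-marker class in both libraries, as counted and after thinning. The interval of the T-marker class did so in the PHDTiEC library as counted, and in both libraries after thinning, with 6.41 to 13.1% and 7.98 to 14.1% against 2.67 to 4.17% and 2.66 to 4.08%.

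Neutrophils, which do not divide once mature, gave the background. Of 643 Cre- neutrophil-marker barcodes 3 were cycling (0.467%), and of 635 in the PHDTiEC library none, which allows a share of up to 0.472% by the floor of 3 counts and of up to 0.579% by the exact interval. After thinning, which left 101 and 82 of these shallow barcodes, 4 (3.96%, 1.09 to 9.83) and 0 were cycling. At least 1 UMI of Mki67 or Top2a, members included, was found in 2.64% and 1.57% of neutrophil-marker barcodes at median depths of 1845 and 1830 UMIs. In proximal tubule-marker barcodes, at median depths of 17750 and 15536 UMIs, it was found in 3.44% and 3.81%. The same share was 13.6% and 13.8% in macrophage-marker barcodes, 17.6% and 22.7% in T-marker barcodes and 13.5% and 11.8% in injured proximal tubule-marker barcodes, above the proximal tubule share. A barcode of 20000 UMIs made wholly of free RNA would hold 0.352 and 0.316 UMIs of Mki67 and 0.456 and 0.539 UMIs of Top2a, at the levels of barcodes below 100 UMIs.

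Among tubular classes, injured proximal tubule-marker barcodes (Havcr1, Krt20, Vcam1, Lcn2, Sox9) contributed the most members, 34 of 757 in the Cre- library (4.49%, 3.13 to 6.22) and 27 of 643 in the PHDTiEC library (4.20%, 2.79 to 6.05). Thinned shares were 2.35% and 1.27%. Proximal tubule-marker barcodes, which express the transport genes of the healthy segment, cycled at 3 of 407 (0.737%, 0.152 to 2.14) and 3 of 578 (0.519%, 0.107 to 1.51). The intervals of the injured and the healthy class did not overlap in either library as counted. Thinned, the healthy class gave 0.543% (0.0659 to 1.95) and 0.187% (0.00472 to 1.04), against 1.37 to 3.73% and 0.548 to 2.48% for the injured class, and these intervals overlapped. Markers of the classes were read in the same barcodes whose cycling was counted, and deep barcodes of the injured class reached medians of 36573 and 54404 UMIs when cycling, against 20624 and 19602 otherwise.

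Cycling was also found in distal nephron classes. Intercalated-marker barcodes (Atp6v1g3, Slc26a4, Slc4a1, Foxi1) held 11 of 394 and 13 of 353 members, and thick ascending limb-marker barcodes 6 of 446 and 10 of 436. After thinning these were 4 of 376 and 4 of 350, and 1 of 411 and 3 of 403. Collecting duct principal-marker barcodes (Aqp2, Fxyd4, Aqp3, Avpr2, Scnn1g) held 9 of 272 (3.31%, 1.52 to 6.19) in the Cre- and 2 of 333 (0.601%, 0.0728 to 2.15) in the PHDTiEC library, with a ratio of 0.182 (0.0191 to 0.877). After thinning the counts were 3 of 256 and 0 of 313. Tubular barcodes that no segment panel resolved held 9 of 422 and 1 of 441, and 5 of 210 and 1 of 189 after thinning. In these 2 classes, alone among those counted, the interval of the unthinned ratio lay below 1.

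Fibroblast-marker barcodes (Col1a1, Dcn, Pdgfra, Lum, Col14a1) contributed 6 of 143 and 10 of 286, and mural-marker barcodes, the contractile cells around vessels, 3 of 91 and 8 of 116. Thinned, the fibroblast class gave 3 of 134 and 6 of 270 and the mural class 2 of 76 and 2 of 109. Fibroblast-marker members also carried markers of other classes. C1qa, a macrophage marker, had 1 UMI in 1 Cre- and 351 UMIs in 9 PHDTiEC members. Lcn2, a marker of the injured proximal tubule class, had 0 UMIs in Cre- and 901 UMIs in 5 PHDTiEC members. Median depths of these members were 15400 and 42241 UMIs. The part of these markers and of depth in the fibroblast counts was not tested. Glomerular epithelial-marker barcodes contributed 4 of 68 and 5 of 63, thin limb or inner medullary ones 1 of 83 and 6 of 86, and distal convoluted tubule ones 2 of 136 and 4 of 156. Monocyte, B, NK and urothelial classes together had no member in the Cre- library, and 2, 1, 1 and 2 in the PHDTiEC library. In these small classes every interval of the ratio included 1.

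Gene levels in cycling barcodes were set against those in other barcodes of the same lineage. The cells differ by construction here, so the values are descriptions. Among immune barcodes, 6.46% of 9652 genes in the Cre- and 6.71% of 10045 genes in the PHDTiEC library were at least 2-fold higher in cycling barcodes. The genes were ranked by their log2 ratio in the Cre- library. The highest there was that of the linker histone Hist1h1b, 7.42 in the Cre- and 8.33 in the PHDTiEC library, followed by the spindle gene Nusap1 with 7.30 and 8.24 and by Cenpf with 7.05 and 7.06. The next genes were Hist1h3c, Esco2, which joins sister chromatids, Hmmr, the mitotic kinase Plk1, Pbk, cyclin A (Ccna2) and Hist1h2ap. In the PHDTiEC library the order was not the same, and Esco2 (8.70), Pbk (8.43) and Hist1h3c (8.42) lay above Hist1h1b.

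Among tubular barcodes, 5.3% of 12074 and 4.64% of 12160 genes were at least 2-fold higher in cycling ones. The highest log2 ratios of cycling over other in the Cre- library were those of the kinetochore gene Cenpf, 7.59 and 8.17, and of the mitotic kinase gene Pbk, 7.55 and 6.72. Mki67, Hmmr, Top2a, Ccna2, Prc1, Kif20a, Knl1 and Ccnb1 followed, of which Ccnb1 had 6.60 and 7.08, and in the PHDTiEC library Hmmr (8.52) lay highest of these 10 genes. The median log2 ratio of 50 G2/M genes was 4.87 and 5.25 in immune and 5.32 and 5.80 in tubular barcodes. The median of 42 S-phase genes was 2.29 and 2.62 in immune and 2.04 and 1.80 in tubular barcodes.

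Each member was placed by the UMIs of the S-phase and of the G2/M list per 10000 UMIs of its barcode. Over all members the S-phase sum had a median of 22.9 in the Cre- and 22.7 in the PHDTiEC library, with a highest value of 98.1 and 98.9. The G2/M sum had a median of 45.7 and 41.3, with a highest value of 227 and 245. S-phase UMIs exceeded G2/M UMIs in 87 of 273 members (31.9%, 26.4 to 37.8) and 96 of 275 (34.9%, 29.3 to 40.9). Macrophage-marker barcodes that were not members had medians of 4.15 and 4.08 for S phase and 2.99 and 3.18 for G2/M. The rule uses a pair of genes that peak late in the cycle, so cells early in S phase are counted less fully.

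**Figure D3:**
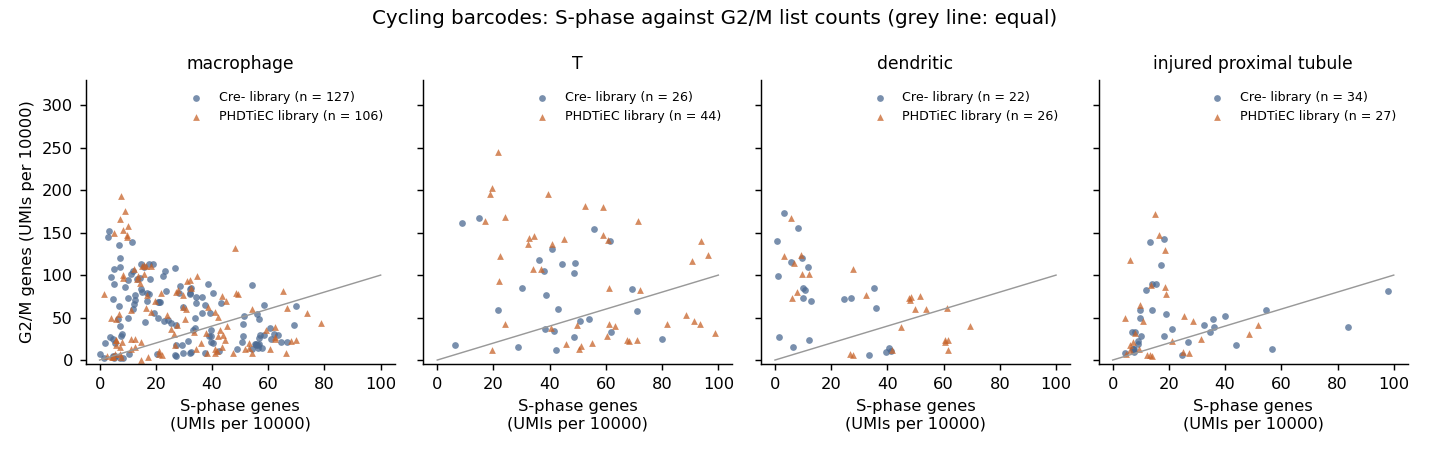
UMIs of the S-phase list (horizontal) and the G2/M list (vertical) per 10000 UMIs of each cycling barcode, in 4 marker classes, with 1 point per barcode, a shape and colour per library, and a grey line of equality. The highest G2/M value, 245, is that of a T-marker member of the PHDTiEC library.

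T-marker members had S-phase medians of 42.6 and 51.7 and G2/M medians of 68.6 and 99.7. Macrophage-marker members had 26.7 and 26.1 for S phase and 49.8 and 42.5 for G2/M. Injured proximal tubule-marker members had 16.3 and 14.0 for S phase and 37.4 and 31.5 for G2/M. Dendritic-marker members had like G2/M medians, 72.8 and 71.6, and S-phase medians of 11.3 in the Cre- and 43.2 in the PHDTiEC library. Among these medians the largest gap between the libraries was that of S phase in dendritic-marker members, closely followed by that of G2/M in T-marker members. The S-phase quartiles of dendritic-marker members overlapped, at 6.83 to 31.9 and 10.3 to 53.3. In this class S-phase UMIs exceeded G2/M UMIs in 4 of 22 (18.2%, 5.19 to 40.3) and 9 of 26 (34.6%, 17.2 to 55.7), and these intervals overlapped.

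The libraries were then compared gene by gene within cycling barcodes, as the log2 ratio of CPM of PHDTiEC over Cre-. In cycling immune barcodes, 20 of 5589 genes with at least 100 UMIs (0.358%) were at least 2-fold higher and 26 (0.465%) at least 2-fold lower in the PHDTiEC library. None of 47 G2/M genes and none of 37 S-phase genes with as many UMIs was among them. Of 50 G2/M genes with at least 10 UMIs, 34 were higher and 16 lower, with a median of 0.11, and of 42 S-phase genes 32 were higher and 10 lower, with a median of 0.12. The median of all genes was 0.02. Median depths of cycling immune barcodes were 16808 and 14931 UMIs, and the part of depth in the list values was not tested. Cdk1 stood at 178 and 165 CPM, and Pcna at 309 and 296 CPM, and the counting intervals of these ratios included 0. Rrm2, the small subunit of ribonucleotide reductase, stood at 87.0 and 132 CPM with a log2 ratio of 0.60 (0.34 to 0.86).

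**Figure D4:**
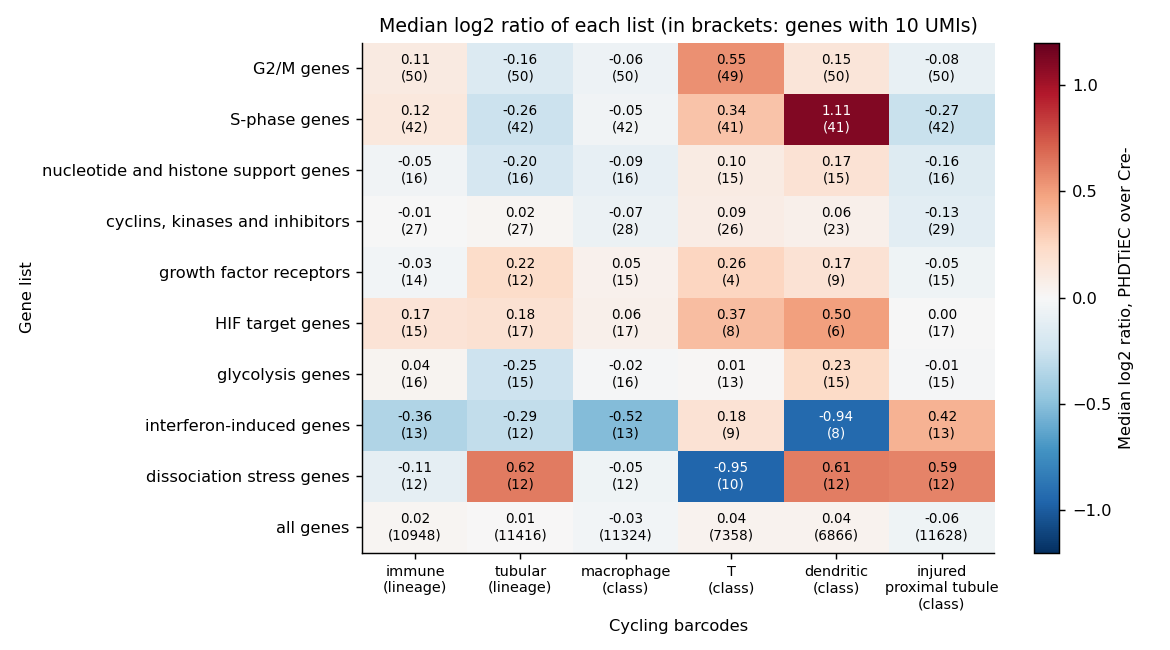
Median log2 ratio of PHDTiEC over Cre- for 9 gene lists and for all genes in cycling immune and tubular barcodes and in 4 marker classes, with the number of genes with at least 10 UMIs in brackets. S-phase genes in dendritic-marker members (1.11) and dissociation stress genes in T-marker members (-0.95) lie farthest from 0.

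The genes farthest from 0 in cycling immune barcodes were mostly carried by few barcodes. Mucl1 was found only in 1 PHDTiEC barcode, with 541 UMIs. Gzma, a killer cell granzyme, had 4 UMIs in 2 Cre- and 117 UMIs in 8 PHDTiEC barcodes, with 59.8% of them in 1 barcode. Retnla, a gene of alternatively activated macrophages, had 270 UMIs in 7 and 1624 UMIs in 20 barcodes, with 44.8% in 1 barcode. Gzmb, another granzyme, had 48 UMIs in 7 and 261 UMIs in 16 barcodes, with a log2 ratio of 2.08 (1.63 to 2.56). Hspa1b, a heat shock gene, had 31 and 127 UMIs with a log2 ratio of 1.67 (1.10 to 2.29). Of these 5 genes, Gzmb and Hspa1b were the ones in which no barcode held 25% of the UMIs.

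At the lower end of the immune members stood Il17a, the cytokine of type 17 lymphocytes, with 157 UMIs in 8 Cre- and 7 UMIs in 2 PHDTiEC barcodes and a log2 ratio of -4.85 (-6.19 to -3.77), with 36.3% in 1 barcode. S100a9, a neutrophil gene, had 121 and 9 UMIs, with 53.7% in 1 barcode. Saa3, Acta2 and Lox had 95.4%, 94.6% and 86.1% of their UMIs in 1 barcode. The 5 neutrophil markers summed to 174 and 34.9 CPM in cycling immune barcodes. Their median was 0 in both libraries, with a highest Cre- barcode of 301 per 10000 UMIs. The 7 macrophage markers summed to 8793 and 6403 CPM in these barcodes, with medians of 98.9 and 45.1 per 10000 UMIs. The part of both marker sets in the other values was not tested.

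In cycling macrophage-marker barcodes the cell cycle lists lay close to 0, with medians of -0.06 for G2/M and -0.05 for S phase against -0.03 for all genes. Csf1r, the receptor for the macrophage growth factor CSF1, stood at 447 and 448 CPM. At least 2-fold higher in the PHDTiEC library were 0.278% and at least 2-fold lower 0.608% of 5755 genes. The lowest were Cxcl10, a chemokine induced by interferon, with 375 UMIs in 38 Cre- and 36 UMIs in 17 PHDTiEC barcodes (51.5% in 1 barcode), and Vcam1, with 222 UMIs in 42 and 27 UMIs in 16 barcodes and a log2 ratio of -2.93 (-3.57 to -2.35). Vcam1, an adhesion molecule, is also 1 of the markers that assigned the injured proximal tubule class. Cryab, Saa3 and Ctsk followed, with 54.2%, 90.3% and 44.0% of their UMIs in 1 barcode. The highest were Mucl1, Klk1, Mgp, Igfbp5 and Umod, each with more than 50% of its UMIs in 1 barcode.

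Interferon-induced genes had a median of -0.52 in cycling macrophage-marker barcodes, with 11 of 13 lower in the PHDTiEC library. Isg15, a ubiquitin-like antiviral protein, had 193 and 66 UMIs (-1.44, -1.87 to -1.03), with 48.2% in 1 barcode. Rsad2, the antiviral enzyme viperin, had 75 and 14 UMIs (-2.32, -3.25 to -1.48), with 57.3% in 1 barcode. Bst2, which tethers virus particles, had 666 and 609 UMIs (-0.02, -0.18 to 0.14). Cxcl9 was higher, with 31 and 90 UMIs, of which 92.2% came from 1 barcode. In macrophage-marker members with Ptprc and no other lineage gene the median was -0.16 with 5 of 13 genes higher, and without the richest barcode of each library it was -0.47 with 2 of 13 higher.

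In cycling T-marker barcodes, 45 of 49 G2/M genes were higher in the PHDTiEC library, with a median of 0.55, and 31 of 41 S-phase genes, with a median of 0.34, against 0.04 for all genes. Background counts were 1.64% of 1402 genes at least 2-fold higher and 2.92% at least 2-fold lower, and 2 of 25 G2/M genes with 100 UMIs were among the higher ones. Median depths of cycling T-marker barcodes were 12332 and 9736.5 UMIs, and the part of depth in the list values was not tested. Top2a, a gene of the rule, stood at 830 and 1335 CPM. Cenpf stood at 218 and 365 CPM, a log2 ratio of 0.74 (0.38 to 1.12), and Mcm5, of the replicative helicase, at 101 and 153 CPM, a log2 ratio of 0.60 (0.05 to 1.17). Cdk1 stood at 263 and 201 CPM, a log2 ratio of -0.39 (-0.79 to 0.01), and thus did not follow the list. The dissociation stress list had a median of -0.95 with 9 of 10 genes lower, and 51.9% of the Fos and 57.1% of the Jun UMIs came from 1 barcode.

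Genes of T cell subsets, chosen after their values had been seen, were counted as members with a UMI. Cd3e, of the T cell receptor complex, was found in 25 of 26 Cre- and 44 of 44 PHDTiEC members. Cd8a, the coreceptor of cytotoxic T cells, was found in 15 (57.7%, 36.9 to 76.6) and 23 (52.3%, 36.7 to 67.5), against 26.3% and 18.5% of T-marker barcodes that were not cycling. Cd4, the coreceptor of helper T cells, was found in 7 and 14 members, Foxp3, of regulatory T cells, in 2 and 4, and Trdc, of gamma delta T cells, in 5 and 3. Cycling barcodes of this class were deeper than the others, at a median of 12332 against 3191 UMIs in the Cre- and 9736.5 against 3299.5 in the PHDTiEC library, so shares with a UMI are not comparable between them. Per UMI, Cd8a stood at 164 CPM in cycling and 170 CPM in other Cre- barcodes, and at 335 and 139 CPM in the PHDTiEC library. Cd4 stood at 23.4 and 67.6 CPM in the Cre- and 64.3 and 68.6 CPM in the PHDTiEC library.

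Effector genes of these members stood at unlike levels in the libraries. T-marker members, like macrophage- and dendritic-marker ones, share barcodes with the cycling immune barcodes and are no independent set. Il17a was found in 9 of 26 Cre- members (34.6%, 17.2 to 55.7; 176 UMIs, 57 of them in 1 barcode) and in 2 of 44 PHDTiEC members (4.55%, 0.555 to 15.5; 7 UMIs). In T-marker barcodes that were not cycling, which were shallower, Il17a was found in 130 of 514 (25.3%) and 158 of 620 (25.5%). Per UMI, Il17a stood at 413 CPM in cycling and 737 CPM in other Cre- barcodes, and at 13.2 and 607 CPM in the PHDTiEC library. Gzmb had 48 UMIs in 7 Cre- and 252 UMIs in 15 PHDTiEC members, a log2 ratio of 2.08 (1.63 to 2.56), and Ifng, interferon gamma, was found in 4 (15.4%, 4.36 to 34.9) and 16 (36.4%, 22.4 to 52.2). Gzma and Gzmb were also markers of the NK class. Itgb1, an integrin, had 77 and 287 UMIs, a log2 ratio of 1.59 (1.22 to 1.97).

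**Figure D5:**
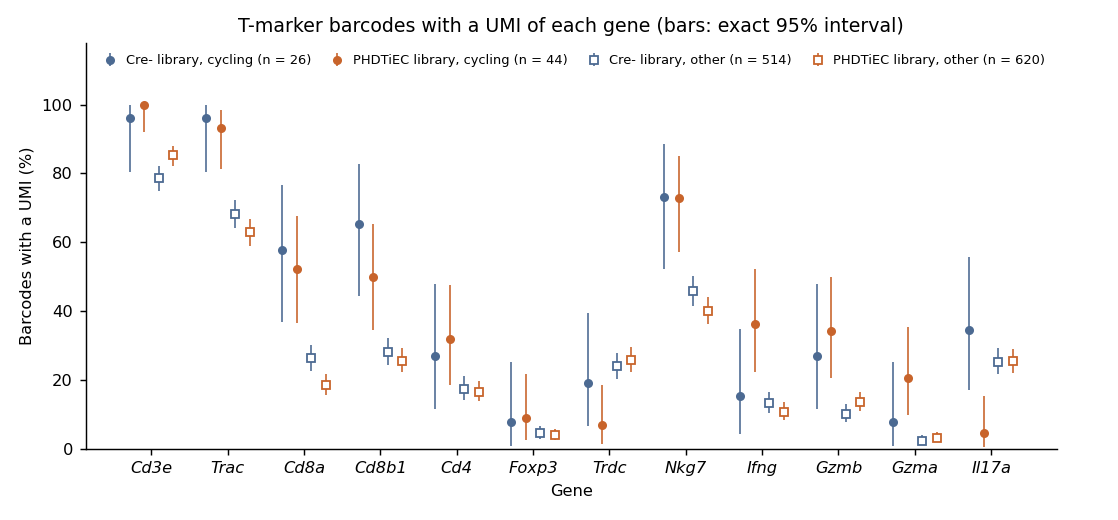
Share of T-marker barcodes with a UMI of each subset or effector gene (percent, exact 95% intervals), for cycling and other barcodes of the Cre- and the PHDTiEC library. Il17a lies at 34.6% in cycling Cre- and at 4.55% in cycling PHDTiEC barcodes, and near 25% in the other barcodes of both libraries. Cycling barcodes were deeper, so these shares are not comparable between cycling and other barcodes.

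The remaining extreme genes of T-marker members rested on single barcodes. Ifitm1 was absent from Cre- members and had 180 UMIs in 2 PHDTiEC members, and 62.7% of the Ccl4 UMIs came from 1 barcode. At the lower end, Cd63, Spink1, Cltrn, Acta2 and Gpx3 each had at least 94.1% of their UMIs in 1 barcode. The 5 proximal tubule markers summed to 427 CPM in Cre- and 18.9 CPM in PHDTiEC members of this class, with a median of 0 in both. Their part in the other values was not tested.

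In cycling dendritic-marker barcodes, 38 of 41 S-phase genes were higher in the PHDTiEC library, with a median log2 ratio of 1.11 against 0.04 for all genes. Of 8 S-phase genes with at least 100 UMIs, 4 were at least 2-fold higher, against 2.1% of 1144 genes, and 1.05% of genes were at least 2-fold lower. Pcna, the replication clamp, had 52 UMIs in 11 Cre- and 136 UMIs in 22 PHDTiEC members (1.04, 0.56 to 1.53). Uhrf1, which maintains DNA methylation at replication forks, had 10 and 59 UMIs (2.21, 1.23 to 3.34), Rrm2 14 and 56 UMIs (1.65, 0.78 to 2.61), and Mcm6, whose promoter with its E2F matches is given above, 17 and 47 UMIs (1.12, 0.29 to 2.01). Atad2, a chromatin ATPase of S phase, had 18 and 91 UMIs (1.99, 1.25 to 2.80). Without the barcode richest in S-phase UMIs in each library, 37 of 40 genes were higher with a median of 1.12, and in members with Ptprc and no other lineage gene 36 of 41 with a median of 0.96. The 5 proximal tubule markers summed to 2.74 CPM in Cre- and 79.4 CPM in PHDTiEC members of this class, with a median of 0 in both. Their part in the S-phase values was not tested.

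G2/M genes of dendritic-marker members had a median of 0.15, with 30 of 50 higher. Ube2c, which drives exit from mitosis, had 246 and 153 UMIs (-1.04, -1.34 to -0.74), and Cenpf 158 and 129 UMIs (-0.64, -0.99 to -0.30). Subset genes, also chosen after their values had been seen, showed both main subsets in each library. Xcr1, of type 1 dendritic cells, was found in 8 of 22 and 11 of 26 members, Cd209a, of type 2 dendritic cells, in 9 and 9, and H2-Ab1, an MHC class II gene, in all 22 and 26. All 8 interferon-induced genes with at least 10 UMIs were lower in the PHDTiEC library, with a median of -0.94. Without the richest barcode of each library 5 genes kept at least 10 UMIs, and their median was -0.40. Retnla was absent from Cre- members and had 293 UMIs in 6 PHDTiEC members, 52.9% of them in 1 barcode. Gpx3, Cxcl2 and Ccl6 at the higher and Cxcl9, Fabp5, Cxcl14, Lpl and Plac8 at the lower end had between 26.9% and 99.2% of their UMIs in 1 barcode.

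In cycling tubular barcodes, 36 of 50 G2/M genes were lower in the PHDTiEC library, with a median log2 ratio of -0.16, and 32 of 42 S-phase genes, with a median of -0.26, against 0.01 for all genes. At least 2-fold higher were 33 of 4199 genes (0.786%) and at least 2-fold lower 52 (1.24%), and 1 of 18 S-phase genes with 100 UMIs was among the lower. With a threshold of 8 UMIs for membership the G2/M median was 0.0048 and the S-phase median -0.053. Membership needs a fixed count of Mki67 plus Top2a, so a deeper barcode passes at a lower level per UMI. Median depths of cycling tubular barcodes were 27923.5 UMIs in the Cre- and 46307 in the PHDTiEC library. The part of depth in the list values was not tested. Tyms, which makes thymidylate, had 235 and 112 UMIs (-1.09, -1.43 to -0.76), Mcm5 66 and 33 UMIs (-1.02, -1.67 to -0.40), Cdc20, which activates the anaphase complex, 165 and 100 UMIs (-0.74, -1.12 to -0.38), and Birc5 267 and 188 UMIs (-0.53, -0.80 to -0.25). Cenpf had 395 and 471 UMIs (0.23, 0.04 to 0.43) and lay on the other side of 0. Cdkn1a, the cell cycle inhibitor p21, had 100 UMIs in 24 Cre- and 208 UMIs in 23 PHDTiEC members (1.04, 0.68 to 1.39). In injured proximal tubule-marker members it had 215 and 189 UMIs (-0.09, -0.38 to 0.20).

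All 12 dissociation stress genes were higher in cycling tubular barcodes of the PHDTiEC library, with a median of 0.62. They are immediate early and heat shock genes that tissue digestion is known to induce. The median mitochondrial share was 6.06% in Cre- and 3.89% in PHDTiEC cycling tubular barcodes, and 7.51% and 5.46% in the other tubular barcodes. The part of this share in the values was not tested. Fos had 2041 and 2987 UMIs (0.53, 0.45 to 0.61), Jun 1082 and 1848 (0.75, 0.64 to 0.86), Egr1 839 and 1378 (0.69, 0.57 to 0.82) and Fosb 365 and 700 (0.92, 0.73 to 1.10). Glycolysis genes had a median of -0.25 with 12 of 15 lower, of which Ldha had 662 and 511 UMIs (-0.40, -0.56 to -0.23). Met, the receptor for hepatocyte growth factor, stood at 86.2 and 114 CPM (0.41, 0.05 to 0.77), and Egfr at 30.0 and 31.0 CPM (0.05, -0.61 to 0.71).

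The genes farthest from 0 in tubular members were Krt14 and Ly6d, absent from Cre- members and with 176 and 117 UMIs in the PHDTiEC library, Ccl20, Klk1 and Sprr1a at the higher end. Sprr1a, an epithelial stress gene, had 53 UMIs in 7 and 291 UMIs in 14 members (2.44, 2.01 to 2.89), with no barcode above 25%, and the other 4 had at least 56.1% of their UMIs in 1 barcode. At the lower end, Kap, Ugt2b38, Cxcl5, Acsm2 and Gatm had between 41.1% and 96.2% in 1 barcode. The 5 proximal tubule markers summed to 369 CPM in Cre- and 51.0 CPM in PHDTiEC members, and macrophage markers to 266 and 86.4 CPM. Their part in the tubular values was not tested.

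The injured proximal tubule-marker members, which include barcodes with several lineage genes, share members with the tubular lineage and are no independent set. S-phase genes had a median of -0.27 with 35 of 42 lower, G2/M genes of -0.08, and dissociation stress genes of 0.59 with 12 of 12 higher, against -0.06 for all genes. Markers of other cell types were counted in the same members. Ptprc was found in 9 of 34 (26.5%, 12.9 to 44.4) and 13 of 27 (48.1%, 28.7 to 68.1), against 17.4% and 17.7% of the other barcodes of the class. The 7 macrophage markers summed to 335 and 441 CPM, with medians of 0.308 and 0.735 per 10000 UMIs, and the 5 proximal tubule markers to 92.7 and 20.3 CPM, with a median of 0 in both. The median mitochondrial share of these members was 5.09% and 4.23%, and their median depths were 36573 and 54404 UMIs. The part of these markers, of this share and of depth in the values was not tested. Fos had 2145 and 3356 UMIs (0.74, 0.66 to 0.82). At least 2-fold higher were 0.712% and at least 2-fold lower 0.601% of 4496 genes. Havcr1, the injury molecule KIM-1, was found in 17 of 34 and 12 of 27 members and stood at 221 and 105 CPM, below the 429 and 371 CPM of injured proximal tubule-marker barcodes that were not cycling. Sox9, a factor of repairing tubular cells, was found in 27 of 34 and 25 of 27 members and stood at 133 and 183 CPM, against 263 and 243 CPM in the others. Lcn2, an injury-induced iron carrier, stood at 3872 and 3574 CPM in members and at 3322 and 3782 CPM in the others, and thus lay above them in the Cre- library. Vcam1 stood at 419 and 454 CPM against 663 and 531 CPM, and Krt20, a keratin of injured tubules, at 5.41 and 3.62 CPM against 30.7 and 26.5 CPM. These 5 genes were the markers of the class.

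In the 9 stromal members, 3.14% and 4.04% of 223 genes with at least 100 UMIs were at least 2-fold higher and lower. The highest were Ccn2, Fn1, Itgb1, Col4a1 and Myh9, matrix, adhesion and contractile genes, with 59.1% to 88.3% of their UMIs in 1 barcode. Among the lowest were Spp1, Mt1, Gm42418 and Serpine2, with 32.3% to 70.0% in 1 barcode. The endothelial members, 1 against 1, differed as single cells do and were not compared further.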

How the data were processed

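Single-cell RNA was measured with the 10X Genomics 3′ kit in 1 Cre- and 1 PHDTiEC postischemic kidney. The authors deposited raw UMI counts per gene and barcode, made with Cell Ranger (version 4 per the file header) on mm10, unfiltered and without free-RNA correction. Barcodes were kept at 500 to 100000 UMIs, at least 200 genes, at most 50% mitochondrial UMIs and log10 genes over log10 UMIs of at least 0.8. No cluster was removed and no clustering was run, so the kept barcodes include ones the study's own filtering and cluster exclusion left out.

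Members and gene lists were chosen with earlier results of these data known. Counts were summed per library and scaled to CPM. A log2 ratio has an exact interval from the split of a gene's UMIs between the libraries, a share has a Clopper-Pearson interval, and a gene or share at 0 is set against a floor of 3 counts. Fold counts used genes with at least 100 UMIs and list medians genes with at least 10. Named genes were the 5 highest and 5 lowest log2 ratios per set, without mitochondrial, ribosomal protein, haemoglobin and sex-linked genes, the 10 highest in cycling over other barcodes, and the listed genes. The other genes named were chosen after their values were seen. Some genes that the rule names are not reported here. Marker classes were chosen within the lineage panel with the most UMIs. Each barcode went to the marker panel with the highest mean of log-scaled counts per 10000 UMIs, if at least 2 of its genes were detected. Doublets were not removed in the main values: a simulated-doublet score marked 4.77% and 4.80% of barcodes, and 46.1% and 43.5% of simulated doublets scored above that cut. Mx1 of the interferon list has no entry in the gene table, and Aldoa has 2. Free-RNA shares were estimated at 2.17% and 2.15% of UMIs in immune and 7.07% and 2.36% in tubular members.

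The fold calculation was tested on simulated data. Python 3.11.15 with numpy 2.4.6, scipy 1.17.1, pandas 2.3.3, scikit-learn 1.9.0 and matplotlib 3.10.9 was used, and edgeR 4.0.16 in R 4.3.3 gave TMM factors only. The alternatives changed the threshold, gate genes, filters, depth, scaling, free RNA, doublets and lineage rule.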

Additional observations from a re-analysis of the deposited data

Results flagged for a closer look

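Pairs of cell groups in which PHDTiEC over Cre- pointed opposite ways are listed here, and the differences between them were not tested. The cycling share had a ratio of 1.08 in immune and 0.699 in tubular barcodes. It had a ratio of 1.38 in T-marker and 0.790 in macrophage-marker barcodes. The median log2 ratio of G2/M genes was 0.11 in cycling immune and -0.16 in cycling tubular barcodes. The median of S-phase genes was 0.12 in cycling immune and -0.26 in cycling tubular barcodes. Cycling immune barcodes had median depths of 16808 UMIs in the Cre- and 14931 in the PHDTiEC library, and cycling tubular ones 27923.5 and 46307. The part of depth in these pairs was not tested.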

How the results depend on the processing

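No paired analysis was possible because each genotype has 1 library. Of the alternative values of the main results, 92 stayed within their tolerance, which for a share ratio is its counting interval, and 13 moved past it. That interval was wide in stromal (0.0532 to 1.54) and endothelial (0.00883 to 54.4) barcodes, so alternatives there could hardly move past it. Directions were not kept throughout: the immune share ratio was 0.998 with Cenpf and Birc5 as gate genes, 0.961 with the lineage gene with the most UMIs and 0.941 with the panel, and the stromal ratio was 1.43 with the lineage gene with the most UMIs. The kept ratio was 1.01 and the endothelial ratio 1.04 at a threshold of 2 UMIs, and the endothelial ratio was 1.39 with Cenpf and Birc5. The ratio of the cycling share ranged from 0.844 to 1.01 over all kept barcodes, 0.941 to 1.23 in immune, 0.475 to 0.890 in tubular, 0.263 to 1.43 in stromal, 0.710 to 0.987 in macrophage-marker and 1.15 to 1.47 in T-marker barcodes, and thinning gave 0 in endothelial barcodes (1 against 0 members). The count of genes past 2-fold was 46 in immune members, 78 with the mean over barcodes and 331 with a minimum of 20 UMIs, and 85 in tubular members, 588 with that minimum. In immune members the mean over barcodes gave 0.19 for G2/M and 0.29 for S-phase genes, and a threshold of 8 UMIs gave 0.014 for S-phase genes. In tubular members G2/M genes had 0.0048 at a threshold of 8, -0.060 with the mean over barcodes, -0.23 with free RNA subtracted and -0.31 without high doublet scores, and S-phase genes -0.053 at a threshold of 8 and -0.38 without high doublet scores. Alternatives chosen after seeing the data restricted classes to Ptprc alone. In dendritic-marker members the restriction gave 0.96 for S-phase and, over 6 genes, -0.53 for interferon-induced genes. It gave 0.46 for G2/M genes in T-marker and -0.16 for interferon-induced genes in macrophage-marker members. The cause of these moves was not tested. With 1 to 44 members in most classes, counting error limits what differences could be seen.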
